A study of Mus musculus with 6 samples.

Results

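The cytosolic iron-sulfur cluster assembly (CIA) machinery was followed in A375 human melanoma cells carrying guide RNAs against ABCE1 or YAE1. The 9 genes examined were chosen for their known role and matched by Ensembl identifier: CIAO1 (ENSG00000144021), CIAO2B (ENSG00000166595), CIAO2A (ENSG00000166797), CIAO3 (ENSG00000103245), MMS19 (ENSG00000155229), NUBP1 (ENSG00000103274), NUBP2 (ENSG00000095906), CIAPIN1 (ENSG00000005194) and NDOR1 (ENSG00000188566). All 9 were found among the 62492 identifiers of the expression table, and all 9 were among the 12578 genes kept for testing, whose mean FPKM was 1 or more (FPKM counts fragments relative to model length and library total). RNA from 6 libraries was sequenced, 2 per group, from cells that had received lentivirus with CRISPR/Cas9 and a guide and were harvested 7 days after selection in puromycin (10 µg/mL). Cas9, the lentivirus and puromycin were common to all 3 groups. Control cells (labelled wild type) carried guides against LacZ or Luciferase, which have no target in human cells. The ABCE1 libraries are titled sgAbce1-1 and sgAbce1-2 (genotype labels Abce1 knockout and Abce2 knockout), and the YAE1 libraries sgYAE1-1 and sgYAE1-2 (Yae1 knockout and Yae2 knockout). The groups follow the titles. The organism label reads Mus musculus, although the cell line and the gene identifiers are human.

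Whether a group's libraries stem from different guides, separate cultures or a selected clone is not stated in the labels. The p-values therefore reflect the spread among the sequenced libraries alone, and that spread may be technical. The identifiers were not paired with symbols outside the 9 genes, so the levels of ABCE1, YAE1, LTO1, melanocyte markers and the mitochondrial assembly genes were not analysed here. The knockouts and the cell type were therefore not checked against the labels. Library totals worked out from the values were 15713011 to 18399717.5 fragments. Over the kept genes, libraries of the same group correlated at 0.992 to 0.994 and libraries of different groups at 0.942 to 0.98.

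Iron-sulfur clusters are cofactors of many enzymes that copy, repair or unwind DNA and of ABCE1, the ATPase that splits ribosomes after termination. In the cytosol the cluster is built on a scaffold, NUBP1 with NUBP2, with electrons supplied through NDOR1 and CIAPIN1. CIAO3 links the scaffold to a targeting complex of CIAO1, CIAO2B and MMS19, which inserts the cluster into client proteins. YAE1 and LTO1 form an adaptor that brings ABCE1 to that targeting complex. CIAO2A is a relative of CIAO2B that also binds CIAO1 and serves the maturation of the iron regulatory protein IRP1. The groups below follow these textbook roles: early genes (NUBP1, NUBP2, CIAPIN1, NDOR1), the bridge CIAO3, targeting genes (CIAO1, CIAO2B, MMS19), and CIAO2A on its own.

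The machinery was not expressed at a uniform level. Averaged over the 6 libraries, CIAO2B (44.1 FPKM), CIAPIN1 (37.2 FPKM), CIAO2A (36.5 FPKM) and CIAO1 (27.4 FPKM) were the most abundant per length. NUBP1 (13.9 FPKM) and MMS19 (12.4 FPKM) followed, then NUBP2 (5.56 FPKM) and NDOR1 (4.94 FPKM), and CIAO3 came last at 1.43 FPKM. Among the kept genes CIAO2B was above 92.9% and CIAO3 above 9.38%. In all 6 libraries CIAO2A exceeded CIAO1, CIAO1 exceeded NUBP1, MMS19 exceeded NUBP2, and NDOR1 exceeded CIAO3, with no overlap of their ranges. The ranges of CIAO2B and CIAPIN1, of CIAPIN1 and CIAO2A, of NUBP1 and MMS19, and of NUBP2 and NDOR1 overlapped across libraries. Within the controls those 4 pairs did not overlap, and CIAPIN1 (40.1 ± 0.0235 FPKM, SD, n = 2) stood above CIAO2A (38.6 ± 0.312 FPKM) and CIAO2B (37.7 ± 2.42 FPKM). With ABCE1 guides (46.7 ± 4.46 FPKM) and with YAE1 guides (47.8 ± 5.34 FPKM) CIAO2B was first.

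**Figure D1:**
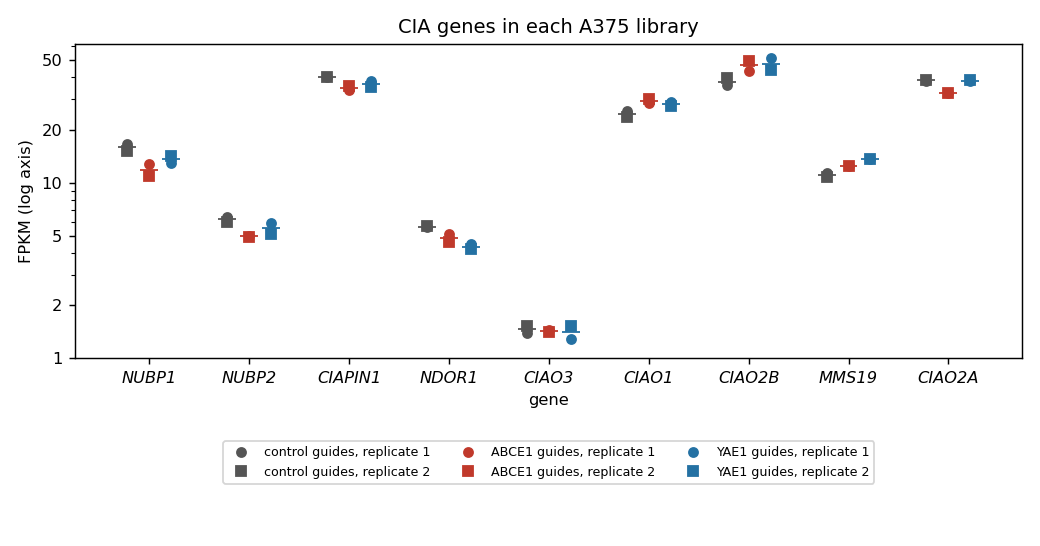
FPKM on a log axis for each CIA gene (x axis, early genes at the left, CIAO3, then targeting genes and CIAO2A) in each of the 6 libraries. Colour gives the guides, circles are replicate 1, squares replicate 2, and short lines are group means of 2 libraries. The ABCE1 libraries of NUBP1 (12.8 and 10.97 FPKM) lie below its controls (16.7 and 15.3 FPKM), while those of CIAO2B (43.6 and 49.9 FPKM) lie above its controls (36.0 and 39.4 FPKM).

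The FPKM scale divides by the length of the gene model, and the lengths worked out from the values ranged from 1060 nucleotides for CIAO2B to 8094 for CIAO3. By fragments the order was different: CIAO1 had the most, 2018 to 2563 per library, and CIAO3 the fewest, 174.5 to 217.5 (fragment numbers were recovered in steps of 0.5). CIAO2B, first by FPKM, had 702.5 to 935.5, fewer on average than CIAO1, CIAPIN1, CIAO2A and MMS19. NDOR1 rested on 202 to 291.5 fragments, NUBP1 on 379.5 to 600.5 and NUBP2 on 387.5 to 584.5. A level per length therefore depends for CIAO3 on a long model, and its part in the low rank was not tested. The place of NUBP1 above NUBP2 by FPKM also depends on model length. On average NUBP2 had 475 fragments on a model of 4947 nucleotides, and NUBP1 468 on 1955. The counting error of a single library was 7.57% for CIAO3 and 7.04% for NDOR1 at their lowest and 1.98% for CIAO1 at its highest fragment number. These errors cover counting only.

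**Figure D2:**
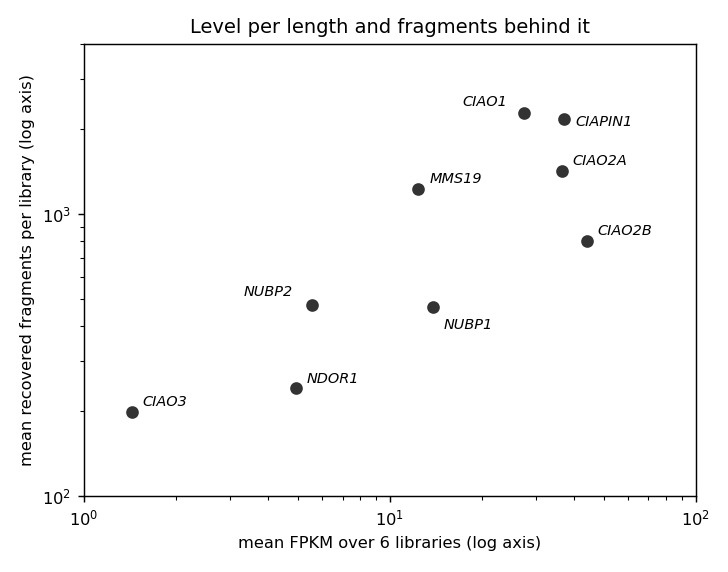
Mean recovered fragments per library (y axis, log) against mean FPKM over the 6 libraries (x axis, log), 1 point per CIA gene. CIAO2B has the highest FPKM (44.1) with 802 fragments, CIAO1 has 2276 fragments at 27.4 FPKM, and CIAO3 is lowest on both axes (1.43 FPKM, 199 fragments).

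The first comparison asked which CIA genes differ between cells with ABCE1 guides and control cells. The 3 targeting genes were higher by 12.5% to 23.9%, and CIAO2A and 3 of the 4 early genes were lower by 13.01% to 25.5%. In all, 7 of the 9 genes passed the test (limma on log2(FPKM + 1), Benjamini-Hochberg adjusted p under 0.05 over 12578 genes), 3 higher and 4 lower. NDOR1 and CIAO3 did not pass. Of all genes tested 57.9% were called, 37.5% higher and 20.4% lower, and the 7 of 9 is read against that background, with nothing taken as particular to these genes. The ABCE1 and control libraries did not overlap for 8 of the 9 genes, as for 81.5% of all genes. The median log2 change of the 9 genes was -0.18, against 0.10 for all genes, and their median size of change was 0.23, against 0.28. In bulk RNA, fewer cells of a kind and less RNA per cell cannot be told apart.

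Among the early genes NUBP1, a P-loop ATPase of the scaffold, had 16.7 and 15.3 FPKM in the controls and 12.8 and 10.97 FPKM with ABCE1 guides. Every ABCE1 library lay below both controls, and NUBP1 fell by 0.40 ± 0.09 on the log2 scale (SE, limma adjusted p = 0.0071), the furthest of the 9. Its partner NUBP2 had 6.42 and 6.002 FPKM in the controls and 4.99 and 4.92 FPKM with ABCE1 guides. Its groups did not overlap either, and NUBP2 fell by 0.28 ± 0.08 (limma adjusted p = 0.019). CIAPIN1, the iron-sulfur protein that hands electrons on to the assembly, had 40.1 FPKM in each control and 33.9 and 35.9 FPKM with ABCE1 guides. Both values were below the controls, and CIAPIN1 fell by 0.20 ± 0.05 (limma adjusted p = 0.019). NDOR1, the flavoprotein that reduces CIAPIN1, had 5.59 and 5.67 FPKM in the controls and 5.11 and 4.61 FPKM with ABCE1 guides. These did not overlap, but the log2 change of -0.18 ± 0.07 did not pass (limma adjusted p = 0.064, 95% interval -0.34 to -0.01 before adjustment).

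The targeting genes lay on the other side. CIAO1, the WD40 protein of the targeting complex, had 25.8 and 23.7 FPKM in the controls and 28.6 and 30.01 FPKM with ABCE1 guides. The groups were separate, with a log2 change of 0.24 ± 0.06 (limma adjusted p = 0.011). CIAO2B had 36.0 and 39.4 FPKM in the controls and 43.6 and 49.9 FPKM with ABCE1 guides. It rose by 0.30 ± 0.10 (limma adjusted p = 0.033), and its ABCE1 libraries differed from each other by more than its controls did. MMS19, the subunit that contacts many DNA-processing clients, had 11.4 and 10.8 FPKM in the controls and a close 12.4 and 12.5 FPKM with ABCE1 guides (log2 change 0.16 ± 0.05, limma adjusted p = 0.031).

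CIAO2A went the opposite way from CIAO2B with ABCE1 guides. It had 38.3 and 38.8 FPKM in the controls and 32.5 and 32.8 FPKM with ABCE1 guides, without overlap. The replicates differed by 0.02 in the controls and 0.01 with ABCE1 guides on the log2 scale. Counting alone would give such a gap an SD of 0.05 and 0.06, so the replicate gap is a narrow yardstick. CIAO2A fell by 0.23 ± 0.04 on the log2 scale (limma adjusted p = 0.0024). CIAO3, which resembles iron-only hydrogenases, had 1.39 and 1.53 FPKM in the controls and 1.44 and 1.42 FPKM with ABCE1 guides, with the ABCE1 values inside the control range. Its log2 change was -0.02 (limma adjusted p = 0.9, 95% interval -0.25 to 0.22), an interval that leaves room for changes of the size seen in MMS19 or CIAO2A. Because log2(FPKM + 1) understates changes of low genes, it leaves room for still larger changes in FPKM.

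The calls with ABCE1 guides differed in how they held when the processing was varied. CIAO2A and NUBP1 passed in each of 14 alternatives, CIAO1 in 11, NUBP2 and CIAPIN1 in 10, CIAO2B in 9 and MMS19 in 7. Among these, fitting only the libraries compared and leaving out either YAE1 library change neither the ABCE1 nor the control libraries. Those alternatives are near repeats of each other. The kept genes as a whole had shifted up, with a median log2 change of 0.10. Setting every library to a common median gene (centring) moved that value to -0.04. After centring none of the targeting genes passed, at 0.10 for CIAO1 (limma adjusted p = 0.2), 0.16 for CIAO2B (0.2) and 0.02 for MMS19 (0.77), while NDOR1 passed at -0.32 (0.0087). Quantile normalization kept CIAO1 and CIAO2B but gave 0.02 for MMS19 (limma adjusted p = 0.7) and -0.32 for NDOR1 (0.0075). The same scaling turned the split over all genes from 64.8% of calls higher to 45.5% with centring and 49.0% with quantile normalization. Leaving out 1 library also ended calls. Without control replicate 1, CIAO2B (0.24, limma adjusted p = 0.16), MMS19 (0.19, 0.053), NUBP2 (-0.23, 0.1) and CIAPIN1 (-0.20, 0.083) did not pass. Without control replicate 2, CIAO1 (0.18, limma adjusted p = 0.075), CIAO2B (0.36, 0.052), MMS19 (0.12, 0.17) and CIAPIN1 (-0.20, 0.08) did not. Without ABCE1 replicate 1, MMS19 (0.16, limma adjusted p = 0.11), NUBP2 (-0.28, 0.067) and CIAPIN1 (-0.16, 0.11) did not. Without ABCE1 replicate 2, CIAO1 (0.20, limma adjusted p = 0.071), CIAO2B (0.20, 0.17), MMS19 (0.15, 0.12) and NUBP2 (-0.27, 0.078) did not.

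The second comparison put the same question for YAE1 guides, with the same 2 control libraries. The 3 targeting genes were higher by 14.03% to 26.6%, and NDOR1 was lower by 22.9%. These 4 of the 9 genes passed the test and 5 did not. Of all genes tested 51.8% were called with YAE1 guides, 34.2% higher and 17.6% lower. The YAE1 and control libraries did not overlap for 7 of the 9 genes and for 77.7% of all genes. The median log2 change of the 9 genes was -0.03, against 0.10 for all genes, and the median size of change 0.18, against 0.24.

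MMS19 had 13.7 and 13.6 FPKM with YAE1 guides against 11.4 and 10.8 FPKM in the controls. Both YAE1 libraries stood above every other library, and MMS19 rose by 0.28 ± 0.05 on the log2 scale (limma adjusted p = 0.0037). CIAO2B had 51.5 and 44.0 FPKM with YAE1 guides against 36.0 and 39.4 FPKM. The YAE1 replicates were far apart but both above the controls, with a log2 change of 0.33 ± 0.10 (limma adjusted p = 0.027). CIAO1 had 28.9 and 27.5 FPKM against 25.8 and 23.7 FPKM, again without overlap (log2 change 0.18 ± 0.06, limma adjusted p = 0.033).

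On the early side, NDOR1 had 4.50 and 4.17 FPKM with YAE1 guides against 5.59 and 5.67 FPKM in the controls. Its YAE1 libraries were the lowest of the 6, and NDOR1 fell by 0.31 ± 0.07 (limma adjusted p = 0.0094). NUBP1, at 13.1 and 14.3 FPKM, lay below both of its controls without passing (log2 change -0.21, 95% interval -0.42 to -0.003, limma adjusted p = 0.082). NUBP2, at 5.93 and 5.13 FPKM, did likewise (-0.15, interval -0.33 to 0.04, limma adjusted p = 0.15), as did CIAPIN1 at 38.2 and 35.2 FPKM (-0.12, interval -0.25 to 0.004, limma adjusted p = 0.094).

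CIAO2A had 38.0 and 38.7 FPKM with YAE1 guides, overlapping the control values of 38.3 and 38.8 FPKM. On the deposited scale its log2 change was -0.01 (limma adjusted p = 0.88) with an interval of -0.10 to 0.09, which does not reach the fall seen with ABCE1 guides. With centring the change was -0.11 (limma adjusted p = 0.068) and with quantile normalization 0.004 (0.94). CIAO3 had 1.28 and 1.52 FPKM, around the controls (log2 change -0.03, interval -0.26 to 0.20, limma adjusted p = 0.79).

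**Figure D3:**
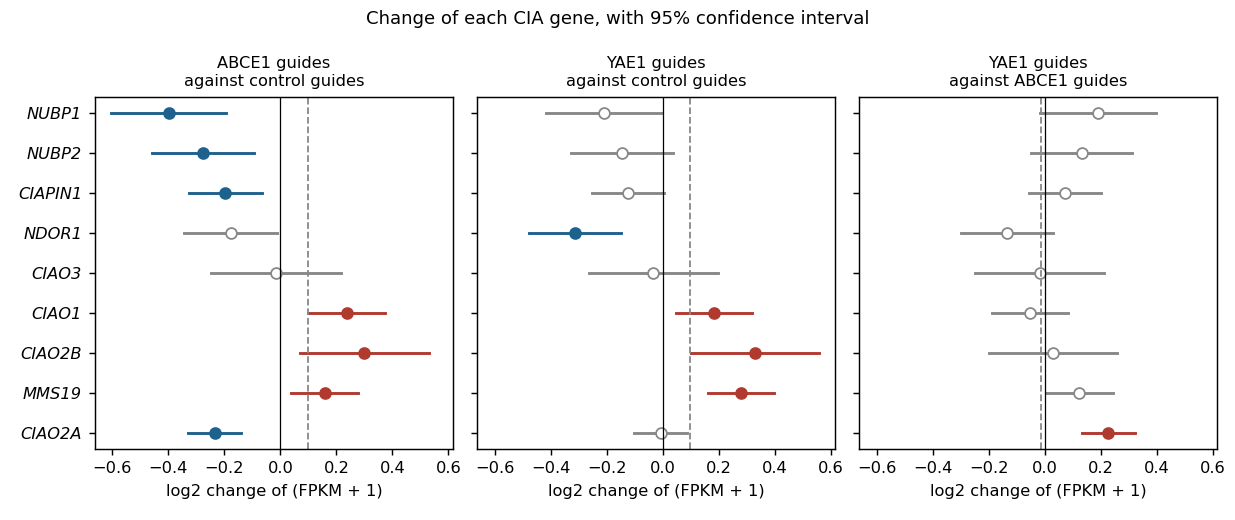
Log2 change of (FPKM + 1) for each CIA gene (points) with its 95% confidence interval before adjustment (lines) in the 3 comparisons. Filled red points are called higher, filled blue points lower, open grey points did not pass, and the dashed line is the median of all 12578 genes. CIAO1, CIAO2B and MMS19 are called higher in each comparison with controls on the deposited scale; after centring none passed with ABCE1 guides and only MMS19 with YAE1 guides.

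MMS19 passed with YAE1 guides in each of 14 alternatives and NDOR1 in 12 of 13, failing without control replicate 2 (-0.30, limma adjusted p = 0.05). CIAO2B passed in 10 of 14 and CIAO1 in 7 of 14. Here fitting only the libraries compared and leaving out either ABCE1 library are near repeats of each other. Over all genes the share of calls that were higher went from 66.0% to 49.1% with centring and 52.2% with quantile normalization. Centring gave 0.09 for CIAO1 (limma adjusted p = 0.27) and 0.23 for CIAO2B (0.093), and it brought NUBP1 (-0.31, 0.023), NUBP2 (-0.24, 0.042) and CIAPIN1 (-0.22, 0.018) past the threshold. Quantile normalization did the same for NUBP1 (-0.26, limma adjusted p = 0.047) and NUBP2 (-0.24, 0.049). Without YAE1 replicate 1, CIAO1 (0.15, limma adjusted p = 0.11) and CIAO2B (0.22, 0.11) did not pass, and NUBP2 (-0.23, 0.046) and CIAPIN1 (-0.18, 0.034) did. CIAO2B did not pass without control replicate 1 (0.27, limma adjusted p = 0.14), and CIAO1 did not pass without control replicate 2 (0.13, 0.19), ABCE1 replicate 1 (0.18, 0.051) or ABCE1 replicate 2 (0.18, 0.052).

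**Figure D4:**
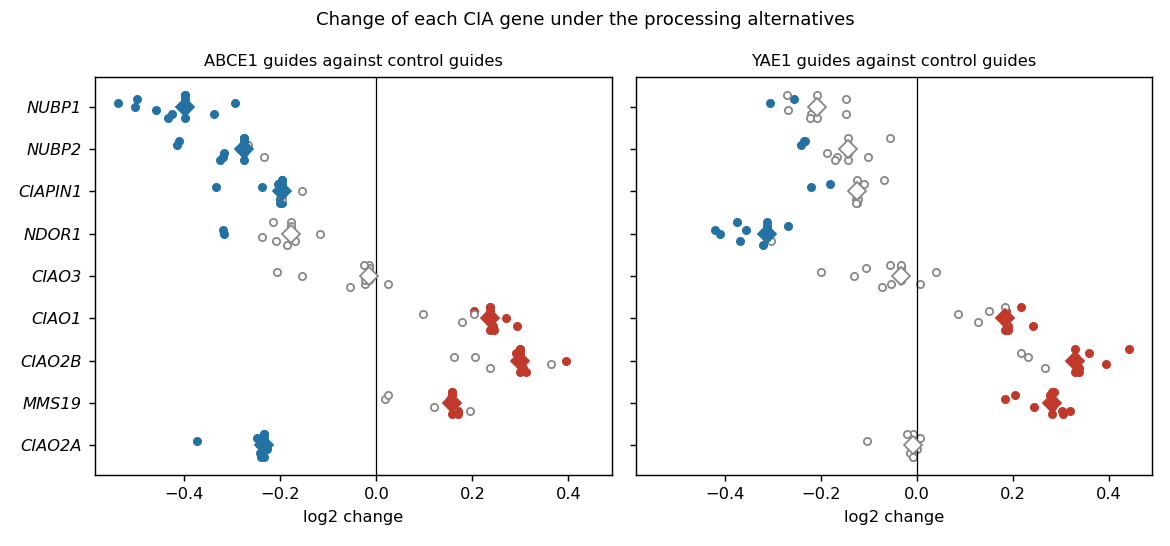
Log2 change of each CIA gene with ABCE1 guides (left) and YAE1 guides (right) as reported (diamonds) and under 13 or 14 processing alternatives (circles, spread vertically for visibility). Filled symbols passed the test, red higher and blue lower, and open grey symbols did not. NUBP1 and CIAO2A at the left and MMS19 at the right are filled throughout, and the values for MMS19 at the left run from 0.02 to 0.19.

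Because both comparisons use the same controls, the calls they share are not taken as repeats of each other. The difference between the knockouts was tested directly, as YAE1 guides against ABCE1 guides. Of the 9 genes 1 passed, CIAO2A, where 34.0% of all genes did (15.3% higher and 18.7% lower with YAE1 guides). The libraries of the knockouts did not overlap for 5 of the 9 genes and for 70.2% of all genes. CIAO2A was 17.6% higher with YAE1 guides, at 38.0 and 38.7 FPKM against 32.5 and 32.8 FPKM, a log2 difference of 0.23 ± 0.04 (limma adjusted p = 0.008). Leaving out ABCE1 replicate 1 ended this call (0.22), which held in the other 13 alternatives. Of those, fitting only the libraries compared and leaving out either control library are near repeats of each other. MMS19 was 9.64% higher with YAE1 guides without passing (log2 difference 0.12 ± 0.05, limma adjusted p = 0.098), but passed with centring (0.16, 0.047) and with quantile normalization (0.18, 0.034). Those scalings moved the share of all calls that were higher from 45.1% to 56.0% and 54.0%. For NUBP1 the difference was 0.19 (interval -0.02 to 0.40, limma adjusted p = 0.13) and for NDOR1 -0.13 (interval -0.30 to 0.03, limma adjusted p = 0.18). For NUBP2 it was 0.13 (limma adjusted p = 0.22) and for CIAPIN1 0.07 (0.34). These 4 early genes each passed in 1 of the comparisons with controls on the deposited scale, but were not shown to differ between the knockouts. That pattern changed with the scaling. With centring all 4 passed as lower in each comparison with controls. With quantile normalization NUBP1, NUBP2 and NDOR1 did so in each. Of all 12578 genes, centring called 3915 lower with ABCE1 guides and 3124 with YAE1 guides, and quantile normalization 3571 and 2865. The controls are the same in both comparisons, so the second does not repeat the first. Between the knockouts CIAO1 (-0.05, interval -0.19 to 0.08) and CIAO2B (0.03, interval -0.20 to 0.26) did not pass either.

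Ratios within a library are not altered by a factor common to all genes of that library, although quantile normalization, not applied here, can alter them. The geometric mean of the 3 targeting genes divided by that of the 4 early genes was 1.76 and 1.80 in the controls. It was 2.43 and 2.73 with ABCE1 guides and 2.54 and 2.496 with YAE1 guides, so every knockout library lay above both controls and the knockouts overlapped each other. The summed FPKM of all 9 genes, which does depend on the scaling, was 181 ± 0.313 in the controls, 179 ± 5.43 with ABCE1 guides and 190 ± 7.62 with YAE1 guides (SD, n = 2 each), and the ABCE1 libraries lay on both sides of the controls. Of that sum the targeting genes made up 40.3% and 40.8% in the controls, 48.3% and 50.5% with ABCE1 guides and 48.3% and 46.2% with YAE1 guides. These ratios, and those of the pairs below, are descriptions, since an exact two-sided permutation test of 2 libraries against 2 cannot go below p = 0.333. They restate the changes of the single genes, and both knockouts are set against the same 2 controls. The genes and their grouping were chosen with earlier results of these data known. Of the ratios, only CIAO2B to CIAO2A and NUBP1 to NUBP2 were planned. How often other sets of genes separate in this way was not tested. Of all single genes, 81.5% with ABCE1 guides and 77.7% with YAE1 guides did not overlap the controls.

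The paralogue and partner pairs differed in how their ratio moved. CIAO2B to CIAO2A was 0.94 and 1.02 in the controls, near parity, and 1.34 and 1.52 with ABCE1 guides. With YAE1 guides it was 1.36 and 1.13, above the controls in both libraries. NUBP1 to NUBP2 was 2.60 and 2.54 in the controls, 2.57 and 2.23 with ABCE1 guides, and 2.20 and 2.79 with YAE1 guides, with overlap between all groups. The size of this ratio depends on the model lengths given above. CIAPIN1 to NDOR1 was 7.18 and 7.07 in the controls and 6.63 and 7.77 with ABCE1 guides, but 8.49 and 8.44 with YAE1 guides, higher than in any other library. Within the targeting complex, CIAO1 to MMS19 was 2.26 and 2.21 in the controls and 2.30 and 2.40 with ABCE1 guides. It was lower with YAE1 guides, at 2.11 and 2.02, so its 3 groups did not overlap. CIAO2B to MMS19 overlapped between all groups, at 3.17 and 3.67, 3.51 and 3.997, and 3.76 and 3.23.

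**Figure D5:**
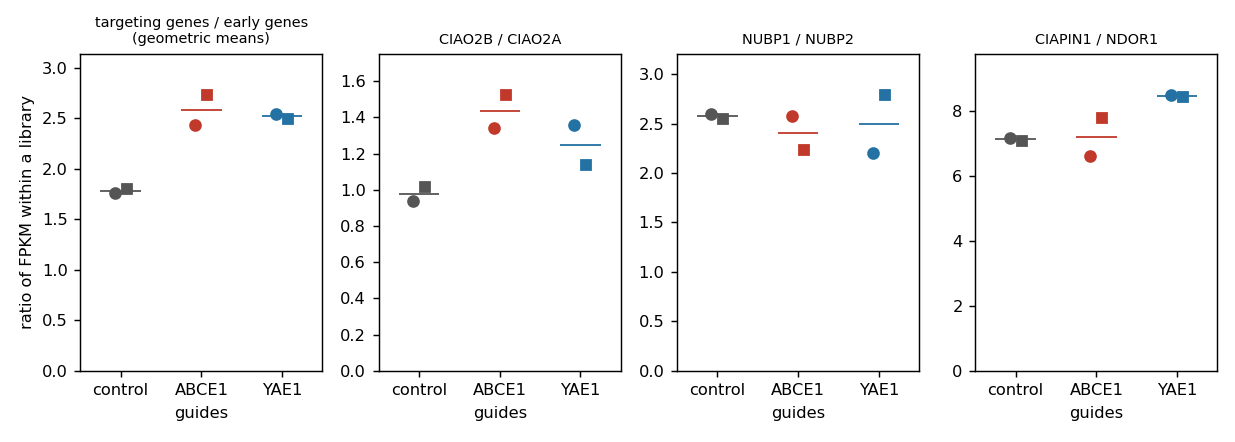
Ratio of FPKM values within each library (y axes, each from 0) for targeting over early genes, CIAO2B over CIAO2A, NUBP1 over NUBP2 and CIAPIN1 over NDOR1, by guides (x axis). Circles are replicate 1, squares replicate 2, and lines are group means of 2 libraries. Targeting over early genes lies at 1.76 and 1.80 in the controls and at 2.43 to 2.73 in the 4 knockout libraries. This grouping was chosen with earlier results of these data known.

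The replicates of a group were compared with what counting alone would give. For CIAO2A the replicate gap was 0.01 to 0.03 on the log2 scale, below the counting SD of such a gap (0.05 to 0.06) in all 3 groups, taking the recovered fragment numbers as they stand. For CIAO2B the gap was 0.13 in the controls, 0.19 with ABCE1 guides and 0.23 with YAE1 guides, against a counting SD of 0.07 to 0.08. CIAO1 had gaps of 0.12, 0.07 and 0.07 against a counting SD of 0.04. For NDOR1 and CIAO3, which had the fewest fragments, the counting SD was 0.12 to 0.15.

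Among the 7040 other genes that averaged 5 FPKM or more, the pattern over the 3 groups nearest to that of CIAO1 was that of ENSG00000197965, followed by ENSG00000153179. Likeness was the distance between the 3 group means of log2(FPKM + 1), each centred on the gene's own mean, and was 0.0027 and 0.0033. ENSG00000197965 had 10.3 and 11.1 FPKM in the controls, 12.9 and 12.7 FPKM with ABCE1 guides and 12.3 FPKM in each YAE1 library. ENSG00000153179 had 9.003 and 8.90 FPKM in the controls, 10.1 and 11.4 FPKM with ABCE1 guides and 9.82 and 10.8 FPKM with YAE1 guides. With only 3 group means to match, this is a description.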

How the data were processed

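The authors deposited 1 table of FPKM values with a column per library. GRCh37 is named in the submitters' processing notes; not given in the sources used here are the read aligner, the counter, the annotation version and the treatment of reads shared by overlapping genes. RNA (1 µg) was read as 150 bp pairs, per the labels' protocols. Of the 62492 identifiers 0 matched the mouse name tables at hand, so genes other than the 9, positions and sequences were not analysed here. The symbols of the 9 came with their identifiers.

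Genes averaging 1 FPKM or more were tested on log2(FPKM + 1), which understates changes of low genes, with limma 3.58.1 in R 4.3.3 (all 6 libraries in 1 fit, eBayes with trend, two-sided, Benjamini-Hochberg over 12578 genes, threshold 0.05). Residual degrees of freedom were 3, with 3.62 from moderation. Fragment numbers were worked out from the steps of the FPKM values as the smallest gene length giving multiples of 0.5 fragments (tolerance 2e-05 steps), which succeeded for 38268 of 38269 genes above 0. A common factor of a gene's 6 values stays unknown. Both steps were tested on simulated data. The 9 genes, their grouping and the tests were chosen with earlier results of these data known. All 9 genes were named whatever their values, and the nearest patterns by the distance given in the text.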

Additional observations from a re-analysis of the deposited data

Results flagged for a closer look

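The effect on CIAO2A differed between the knockouts: its change with YAE1 guides minus its change with ABCE1 guides was 0.23 on the log2 scale (limma adjusted p = 0.008). Of all genes 34.0% were called in this comparison, and 62.0% had a smaller absolute difference than CIAO2A. On the deposited scale CIAO2A was lower than in both controls in 2 of 2 ABCE1 libraries and lay within or close to the control range in the YAE1 libraries. With centring its change was -0.11 with YAE1 guides (limma adjusted p = 0.068) and -0.37 with ABCE1 guides (0.00036). Leaving out ABCE1 replicate 1 ended the call between the knockouts (0.22). With 2 libraries a group, outlying samples were not looked for.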

How the results depend on the processing

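Each gene kept the direction of its called change in all alternatives. With ABCE1 guides 7 CIA genes were called (57.9% of all genes) and 3 with no filter on low values (18.4%). Leaving out any 1 of the ABCE1 or control libraries ended several of these calls, as given above. Leaving out a YAE1 library, which is not part of this comparison, left the log2 changes as they were. Centring gave 5 calls (0 higher, 5 lower), where 57.1% of all genes were called (3271 higher, 3915 lower). Quantile normalization gave 7 (2 higher, 5 lower), where 55.7% of all genes were called (3436 higher, 3571 lower). All genes called went from 7278 to 4761 at a mean of at least 5 FPKM. Fewer genes were tested there, and NDOR1 and CIAO3 were left out. With YAE1 guides 4 were called (51.8% of all genes), 2 with no filter (13.3%), 2 to 4 when leaving out a library (36.1% to 48.4%), 5 with centring (1 higher, 4 lower) and 6 with quantile normalization (3 higher, 3 lower). Between the knockouts 1 was called, 2 with centring, 2 with quantile normalization and 0 to 1 when leaving out a library, while all genes called went from 4279 to 2091 with no filter and to between 1811 and 3721 when leaving out a library. CIAO2A was the single call and was lost without ABCE1 replicate 1, which also gave the 1811. Without ABCE1 replicate 2 all genes called were 1963. An arm left with 1 library is assumed to vary like the other groups. Of all genes tested with YAE1 guides against controls, centring called 48.8% and quantile normalization 47.6%. Between the knockouts these scalings called 34.0% and 34.4% of all genes. Causes were not tested. With no filter, 25691 more genes entered the adjustment and the trend. Same-numbered libraries deviated from their group means with correlations of -0.05 to -0.01, so no common deviation was seen over the kept genes. With 2 libraries a group, both numbers gave the same correlations. The labels do not say whether same-numbered libraries shared a culture, day or batch, and these correlations cannot settle it. With the replicate number as a block, 7, 4 and 1 CIA genes and 7058, 6264 and 3778 of all genes were called, and no CIA gene changed its call. Voom on recovered fragments also called 7, 4 and 1 CIA genes, where 61.3%, 56.2% and 39.9% of all genes were called. NDOR1 and CIAO3 rest on the fewest fragments.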
